A study of Bos taurus with 9 samples.

Results

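Integrins and laminins are the receptors and the basement membrane proteins through which epithelial cells hold on to their matrix. Each integrin is a pair of 1 alpha and 1 beta chain that spans the cell membrane, and each laminin is a trimer of an alpha, a beta and a gamma chain laid down beneath the cells. In the ruminant uterus, integrins of the luminal epithelium and their ligands, among them osteopontin (SPP1), are known as parts of the adhesion of the conceptus to the endometrium. The genes described here are every symbol in the count table that names 1 integrin subunit (ITGA or ITGB) or 1 laminin chain (LAMA, LAMB or LAMC). There were 37 such genes among 30641 in the table, of which 18 encode integrin alpha chains, 8 integrin beta chains and 11 laminin chains. Of these 37, 28 had enough counts to be tested, and the other 9 were at or near 0.

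RNA was sequenced from cultured cells that the labels call bovine endometrial epithelial cells, in 9 libraries, 3 per group. The untreated control group received no reagent and no mRNA. Cells of the reagent alone group were given the transfection reagent jetMESSENGER 24 hours after seeding, and those of the DPPA3 mRNA group the same reagent carrying 500 ng of in vitro transcribed DPPA3 mRNA. No group received another mRNA, so an effect of the DPPA3 sequence and an effect of any transfected mRNA cannot be told apart. Whether replicates came from separate cultures or animals is not in the labels, and the p-values rest on a spread between libraries that could be technical.

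Total counts ranged from 3890134 in reagent alone replicate 1 to 13258036 in DPPA3 mRNA replicate 1. The transfected transcript was found where the labels put it, with 0.953% to 1.93% of all counts in the 3 DPPA3 mRNA libraries and at most 2 counts in any other library. Of 13 epithelial markers, only 6 had enough counts to be tested. All 13 summed to 8928 to 11053 CPM (normalised read counts relative to the TMM-scaled library size) in untreated control. Their sum was 8589 to 8943 CPM with reagent alone and 8793 to 9793 CPM with DPPA3 mRNA. The keratin KRT8 lay between 3802 and 4995 CPM and the cadherin CDH1 between 37.6 and 58.7 CPM. The epithelial adhesion gene EPCAM stayed at or under 0.782 CPM. All 9 stromal markers were tested, and their summed level was 30397 to 46375 CPM in untreated control, 27910 to 35994 CPM with reagent alone and 29464 to 34659 CPM with DPPA3 mRNA. The highest of these sums was that of untreated control replicate 1. Of 8 immune markers, 5 were tested (CD14, CD68, CD79A, CSF1R and ITGB2), and the 8 summed to 6.94 to 13.5 CPM in untreated control, 7.48 to 12.7 CPM with reagent alone and 8.67 to 10.2 CPM with DPPA3 mRNA. The pan-leukocyte marker PTPRC and CD48 had 0 counts in all libraries. The 6 endothelial markers summed to at most 12.7 CPM. All 5 smooth muscle markers were tested, and their sum was 441 to 828 CPM in untreated control. With reagent alone it was 541 to 913 CPM, and with DPPA3 mRNA 426 to 811 CPM. In bulk RNA, a change in the share of cells of a type and a change in RNA per cell cannot be told apart.

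The integrin and laminin genes together took 0.442% to 0.555% of all counts. Integrin genes took 0.172% to 0.234% and laminin genes 0.262% to 0.323%. Levels are given per gene and are not ranked between genes, because transcript lengths were not used here. No gene, member or not, is named below as having risen or fallen unless it passed an adjusted p of 0.05 over all 14874 genes tested, and no integrin or laminin gene did so in any comparison.

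Among the integrin alpha chains, ITGAV pairs with several beta chains and binds ligands with an RGD motif, such as vitronectin, fibronectin and osteopontin. It measured 211, 349 and 268 CPM in untreated control replicates 1 to 3, 417, 393 and 342 CPM in reagent alone replicates 1 to 3, and 352, 400 and 305 CPM in DPPA3 mRNA replicates 1 to 3. Untreated control replicate 1 was the lowest of the 9 libraries, and untreated control replicate 2 lay within the range of both other groups. ITGA5, the chain of the classical fibronectin receptor, was at 52.3 ± 20.0 CPM in untreated control, 37.0 ± 1.51 CPM with reagent alone and 41.3 ± 9.25 CPM with DPPA3 mRNA (SD, n = 3). ITGA8 lay between 0.76 and 2.74 CPM in all 9 libraries. ITGA2B, the alpha chain of the platelet fibrinogen receptor, lay between 0 and 5.16 CPM. The wide range of ITGA2B rests on 0 to 42 counts per library.

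Of the alpha chains that bind laminin, ITGA6 forms a pair with ITGB1 or, in hemidesmosomes, with ITGB4. ITGA6 measured 189, 294 and 241 CPM in untreated control, 310, 336 and 295 CPM with reagent alone and 261, 271 and 260 CPM with DPPA3 mRNA, in each case for replicates 1 to 3. The reagent alone libraries were all above the untreated controls, where 6.92% of all genes were. They were also all above the DPPA3 mRNA libraries, where 3.99% of all genes were. Reagent alone replicate 3, at 295.0 CPM, was barely above untreated control replicate 2, at 294.5 CPM. The DPPA3 mRNA libraries lay within the range of the untreated controls. ITGA3, an epithelial receptor for laminins 332 and 511, was at 417 ± 77.7, 387 ± 10.6 and 388 ± 36.7 CPM in untreated control, reagent alone and DPPA3 mRNA (SD, n = 3). ITGA7, better known from muscle, was at 93.5 ± 32.3, 73.3 ± 9.996 and 76.0 ± 16.7 CPM in the same order.

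The collagen receptors ITGA1, ITGA2 and ITGA10 were detected in all libraries. ITGA1 was at 61.3 ± 18.1 CPM in untreated control, 83.5 ± 8.66 CPM with reagent alone and 76.0 ± 13.7 CPM with DPPA3 mRNA (SD, n = 3). ITGA2 lay between 7.99 and 14.4 CPM and ITGA10 between 2.78 and 6.22 CPM. ITGA9, a receptor for tenascin-C and osteopontin, measured 15.0, 8.99 and 19.7 CPM in untreated control replicates 1 to 3, 5.73, 6.56 and 13.2 CPM with reagent alone and 8.37, 3.88 and 10.02 CPM with DPPA3 mRNA. The ranges of ITGA9 overlapped between all 3 groups.

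Among the beta chains, ITGB1 is the common partner of most alpha chains. It measured 303, 446 and 348 CPM in untreated control replicates 1 to 3, 489, 496 and 460 CPM with reagent alone and 385, 462 and 410 CPM with DPPA3 mRNA. All reagent alone libraries were above all untreated controls, and the DPPA3 mRNA libraries overlapped both. The partners of ITGAV were present except for one: ITGB3 was at 204 ± 29.2, 207 ± 23.5 and 184 ± 19.7 CPM and ITGB5 at 151 ± 29.2, 121 ± 10.1 and 138 ± 17.6 CPM in untreated control, reagent alone and DPPA3 mRNA (SD, n = 3). ITGB8, which with ITGAV can activate latent TGF-beta, measured 29.8, 54.3 and 35.2 CPM in untreated control replicates 1 to 3, 46.6, 61.9 and 43.4 CPM with reagent alone and 40.6, 47.4 and 33.3 CPM with DPPA3 mRNA. Replicate 2 was the highest ITGB8 library in every group. ITGB6, an epithelial partner of ITGAV, had 3 counts in all 9 libraries together, all in untreated control replicate 3. ITGB4, the hemidesmosome chain, was at 42.9 ± 12.5, 33.4 ± 2.96 and 34.7 ± 4.26 CPM in untreated control, reagent alone and DPPA3 mRNA (SD, n = 3).

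**Figure D1:**
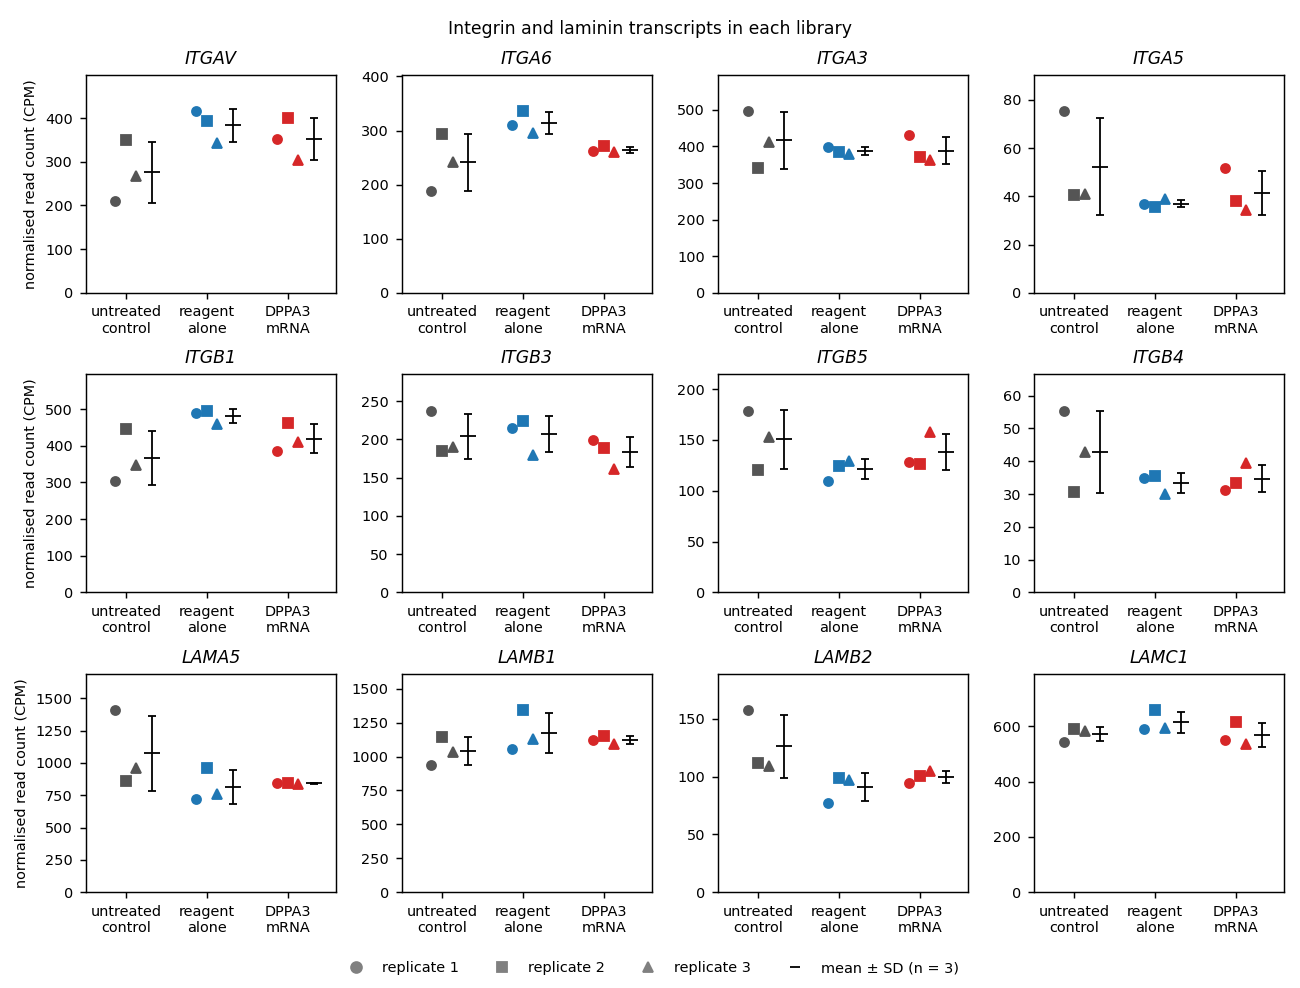
Normalised read count (CPM, vertical axis, from 0 and scaled separately for each gene) of 12 integrin and laminin genes in each library; points are single libraries by group and replicate number, and bars give the mean and SD of 3 libraries. Untreated control replicate 1 is the lowest point for ITGAV (211 CPM), ITGA6 (189 CPM) and ITGB1 (303 CPM) and the highest for LAMA5 (1408 CPM) and LAMB2 (157 CPM).

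Of the laminin chains, LAMA5, LAMB1 and LAMC1 build laminin 511, a main laminin of adult epithelial basement membranes. LAMA5 measured 1408, 862 and 959 CPM in untreated control replicates 1 to 3, 718, 960 and 762 CPM with reagent alone and 843, 847 and 839 CPM with DPPA3 mRNA. Its 3 DPPA3 mRNA libraries lay below every untreated control. LAMB1 measured 939, 1146 and 1032 CPM in untreated control, 1058, 1341 and 1127 CPM with reagent alone and 1124, 1152 and 1093 CPM with DPPA3 mRNA, so all groups overlapped. LAMC1 was at 572 ± 23.9, 615 ± 37.6 and 568 ± 42.6 CPM in untreated control, reagent alone and DPPA3 mRNA (SD, n = 3).

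LAMB2, the beta chain that takes the place of LAMB1 in other trimers, measured 157, 112 and 109 CPM in untreated control replicates 1 to 3, 77.2, 98.7 and 97.2 CPM with reagent alone and 94.0, 101 and 104 CPM with DPPA3 mRNA. The reagent alone libraries were all below the untreated controls, where 7.21% of all genes were. The DPPA3 mRNA libraries were too, where 3.86% of all genes were. The share of all genes for which both held was not counted. LAMA3 and LAMB3 are chains of laminin 332, a laminin of hemidesmosomes. LAMA3 was at 45.6 ± 6.27, 45.0 ± 1.70 and 44.9 ± 5.13 CPM and LAMB3 at 15.0 ± 1.48, 11.96 ± 4.78 and 12.1 ± 2.80 CPM in untreated control, reagent alone and DPPA3 mRNA (SD, n = 3). LAMA4, a chain known from vessels and mesenchyme, was at 29.2 ± 1.79, 33.2 ± 6.22 and 35.4 ± 1.12 CPM (SD, n = 3), and LAMA2 lay between 0.996 and 5.20 CPM.

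The 9 genes that could not be tested had between 0 and 15 counts over all libraries. The leukocyte alpha chains ITGAL and ITGAM had 0 counts in every library, which allows a level of up to 0.226 to 0.747 CPM depending on the library (a limit of 3 counts that covers counting error only). ITGAD had 5 counts and ITGAX 15 counts in all. ITGA4 had 2 counts, ITGA11 had 10, the embryonic chain LAMA1 had 4 and LAMC3 had 7. ITGAE and ITGB7, which pair on intraepithelial lymphocytes, did pass the filter, with ITGAE between 4.99 and 8.45 CPM and ITGB7 between 4.40 and 11.3 CPM. ITGAE overlaps the gene HASPIN in the RefSeq annotation by position, and whether reads of the 2 are mixed cannot be told here.

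Set against reagent alone, the DPPA3 mRNA group differs by the mRNA and not by the reagent. The fold changes of the integrin and laminin genes lay on both sides of 0, with 13 of the 28 log2 values above 0 and 15 below. The count passing edgeR's quasi-likelihood test was 0 of 28, where 0.00672% of all 14874 genes passed (1 gene, DPPA3 itself). An unadjusted p under 0.05 was found for 0 of 28 genes against 1.67% of all genes, and DESeq2 and limma voom also called 0 of the 28. The median log2 fold change was -0.005 for these genes and 0.003 for all genes tested.

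ITGA6 had the smallest p, with a log2 fold change of -0.25 (SE 0.16, 95% interval -0.60 to 0.10; edgeR adjusted p 0.9998). It was the 1 member whose groups did not overlap downward, where 3.99% of all genes did so, and 0 members did so upward against 4.91%. ITGB8 followed at -0.33 (95% interval -0.84 to 0.19), and then ITGA2B at 1.004 (-0.62 to 2.63). The fold change of ITGA2B is that of a gene with 0, 15 and 25 counts in the reagent alone libraries. For chains with more counts the intervals were narrower. LAMB1 had a log2 fold change of -0.07 (95% interval -0.36 to 0.23), LAMC1 of -0.11 (-0.39 to 0.16), ITGA3 of 0.004 (-0.33 to 0.34), ITGAV of -0.12 (-0.52 to 0.27) and LAMA5 of 0.05 (-0.34 to 0.44). ITGB1 was at -0.20 (-0.54 to 0.14). A 2-fold change, which is 1 on the log2 scale, lay outside the interval of each of these genes with more counts.

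DPPA3 mRNA against untreated control measured the reagent and the mRNA together. Here 8 of the 28 genes had a log2 fold change above 0 and 20 below 0, with a median of -0.11 against 0.002 for all genes tested. The edgeR test called 0 of 28, where 0.0134% of all genes were called (2 genes), and DESeq2 and limma voom called 0 of the 28. With replicate number as a block, edgeR called 7 of all genes and 0 of the 28. ITGA9 and ITGAV were then the 2 members with an unadjusted p under 0.05, where 9.35% of all genes had one. Without the block ITGA9 was the 1 gene with an unadjusted p under 0.05, or 3.57% of the 28, against 3.91% of all genes. Its log2 fold change was -0.97 (SE 0.41, 95% interval -1.85 to -0.08; edgeR adjusted p 0.852), and leaving out DPPA3 mRNA replicate 2 gave -0.66. For the 28 genes the median was -0.02 without untreated control replicate 1, and the genes with a fold change above 0 were then 13. Without untreated control replicate 2 the median was -0.21, and 7 of the 28 had an unadjusted p under 0.05, where 18.7% of all genes did.

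Next by p came LAMB2 at -0.34 (95% interval -0.71 to 0.04), LAMA5 at -0.35 (-0.75 to 0.04) and ITGAV at 0.35 (-0.05 to 0.75). The groups of LAMA5 and LAMB2 did not overlap, with DPPA3 mRNA lower, where 3.86% of all genes did so. LAMA4 was the 1 member above without overlap, against 4.24% of all genes, with a log2 fold change of 0.28 (-0.12 to 0.68). Without untreated control replicate 1 the log2 fold changes of LAMA5 and LAMB2 were -0.10 and -0.14, and that of ITGAV was 0.20. Without untreated control replicate 2 they were -0.49, -0.41 and 0.56.

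The effect of the reagent without mRNA was read from reagent alone against untreated control. The edgeR test called 0 of 28 genes, as it did 0% of all genes, and DESeq2 and limma voom called 0 of the 28. An unadjusted p under 0.05 was found for 5 of the 28, or 17.9%, where 10.2% of all genes had one. They were 3 receptor chains with higher means with the reagent, ITGAV, ITGB1 and ITGA6, where 4.23% of all genes were higher by this rule. The other 2 were laminin chains with lower means, LAMB2 and LAMA5, where 5.96% of all genes were lower. The median log2 fold change of the 28 was 0.00 to 2 decimals and that of all genes tested -0.01, with 14 genes on each side of 0.

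LAMB2 had the smallest p, with a log2 fold change of -0.46 (SE 0.17, 95% interval -0.84 to -0.09). ITGAV was at 0.48 (SE 0.19, 0.08 to 0.87), ITGB1 at 0.40 (SE 0.16, 0.05 to 0.74), ITGA6 at 0.38 (SE 0.16, 0.03 to 0.73) and LAMA5 at -0.40 (SE 0.18, -0.80 to -0.01). The edgeR adjusted p was 0.466 for all 5. Groups did not overlap for ITGA6, ITGB1 and LAMC1 upward, against 6.92% of all genes, and for ITGA5, ITGB7 and LAMB2 downward, against 7.21%. Without untreated control replicate 1, 0 of the 28 had an unadjusted p under 0.05, and the share of all genes fell to 3.95%. ITGAV was then at 0.32, ITGB1 at 0.29, ITGA6 at 0.24, LAMB2 at -0.26 and LAMA5 at -0.15. Without untreated control replicate 2, 12 of the 28 had an unadjusted p under 0.05, where 27.1% of all genes did. The smallest edgeR adjusted p was then 0.0625, for ITGAV. On all libraries, limma voom gave 10 of the 28 an unadjusted p under 0.05, where 26.2% of all genes had one. Its smallest adjusted p was 0.056, for ITGB1.

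Both comparisons with untreated control share its 3 libraries. ITGAV had log2 fold changes of 0.48 with reagent alone and 0.35 with DPPA3 mRNA, and ITGB1 of 0.40 and 0.20. ITGA6 was at 0.38 and 0.13. The laminin chains LAMB2 and LAMA5 were at -0.46 and -0.40 with reagent alone and at -0.34 and -0.35 with DPPA3 mRNA.

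**Figure D2:**
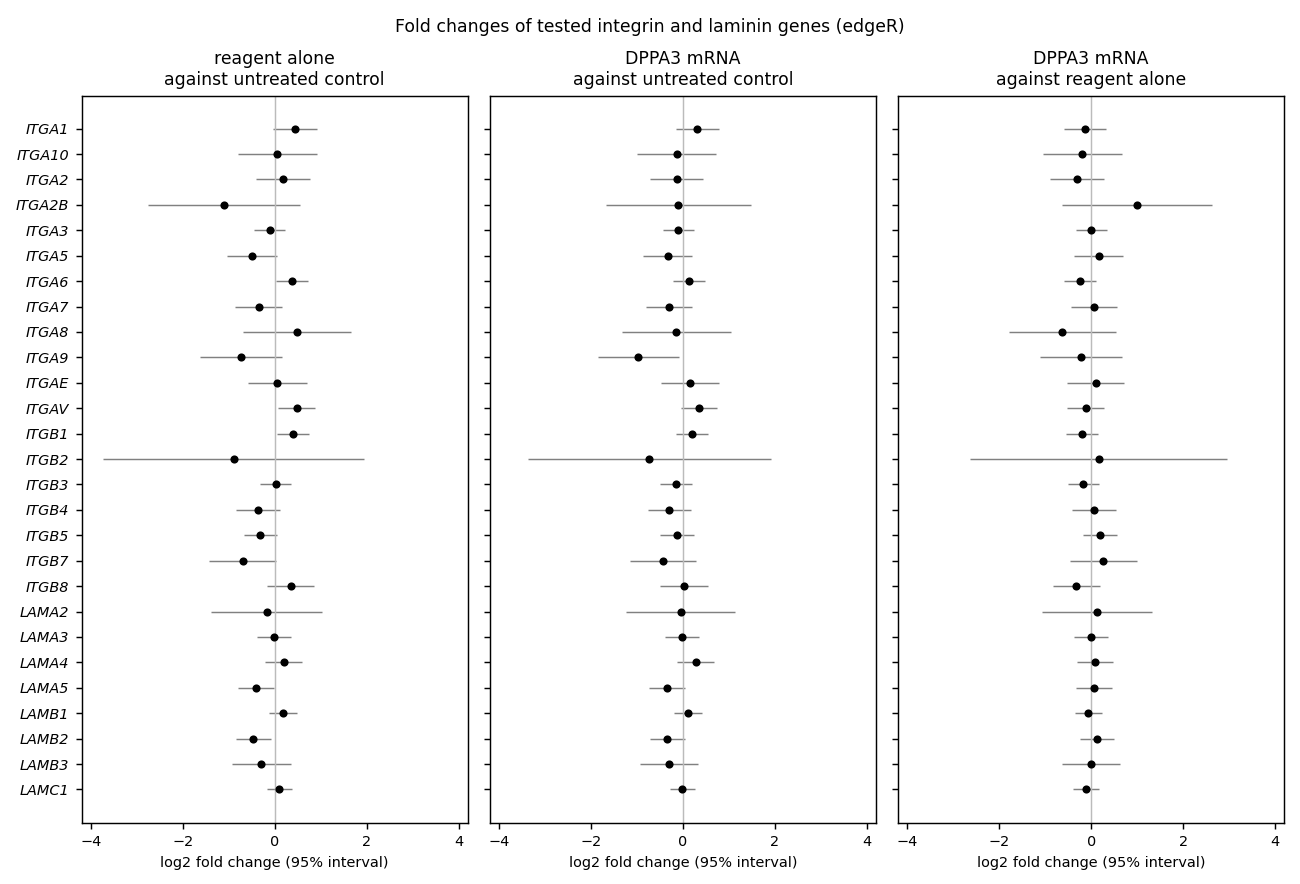
Log2 fold change (horizontal axis) of 27 of the 28 tested genes in the 3 comparisons, with points for the edgeR estimate and bars for its 95% interval. The points for reagent alone against untreated control place LAMB2 at -0.46 and ITGAV at 0.48, and those for DPPA3 mRNA against reagent alone place LAMB1 at -0.07; bars are widest for ITGB2 and ITGA2B, which had few counts.

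How the single libraries differ from their group is a further feature of these genes. In untreated control replicate 1, LAMA5 measured 1408 CPM against a mean of 911 CPM in the other 2 untreated controls, ITGA7 131 against 75.0 CPM, and ITGA5 75.4 against 40.8 CPM. In the same library ITGA1 measured 41.4 against 71.3 CPM and ITGAV 211 against 308 CPM. On the log2(CPM + 0.5) scale 8 of the 28 genes lay over 0.5 above the mean of the other 2 untreated controls and 4 lay over 0.5 below it, or 28.6% and 14.3%. Of all genes tested, 22.4% and 28.5% did so. The stromal marker COL1A1 was also highest in this library, at 18918 CPM against 8085 to 11121 CPM in the other 8. COL1A1 is 1 of 9 stromal markers, and the others are not given singly for this library. Its part in the laminin values was not tested. For reagent alone against untreated control, 4 of the 9 had a log2 fold change above 0 and 5 below (median -0.04).

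**Figure D3:**
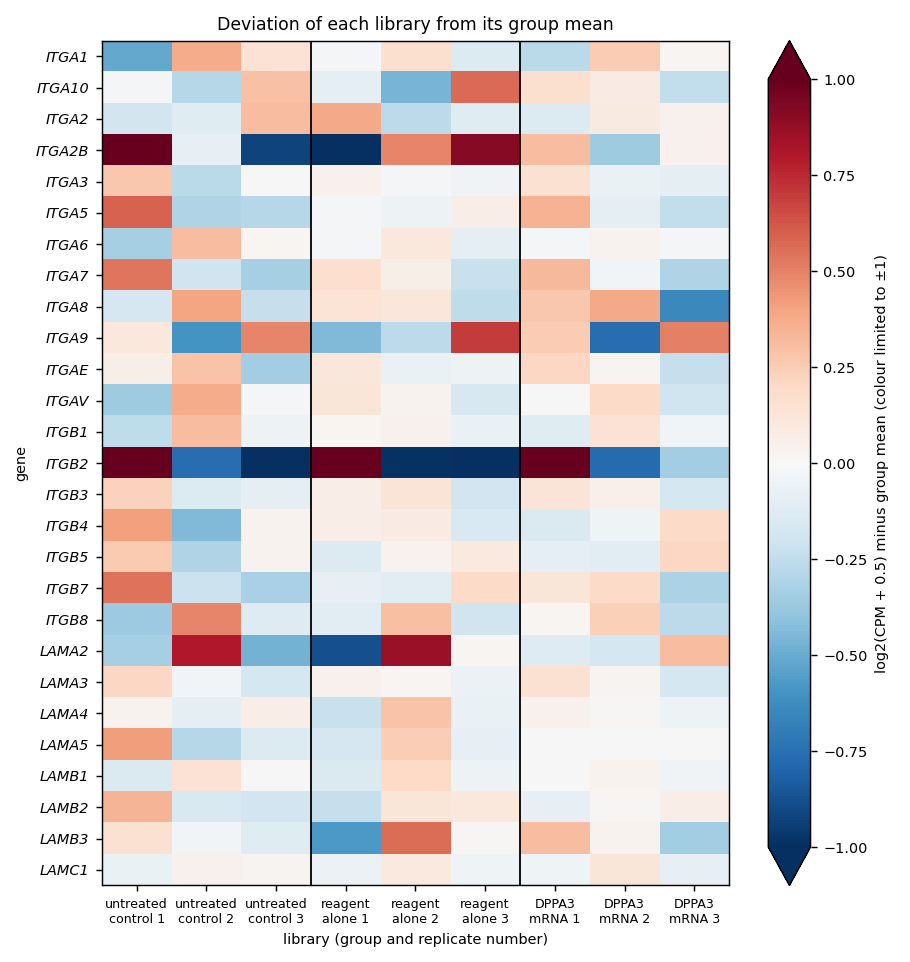
Deviation of each library (columns, by group and replicate number) from its group mean on the log2(CPM + 0.5) scale for 27 of the 28 tested genes (rows); red is above and blue below the mean, and colours stop at 1. ITGB2 is red in replicate 1 of all 3 groups, ITGB8 is red in replicate 2 of all 3 groups, and untreated control replicate 1 has strong colours in both directions.

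Some of these genes followed the replicate number across groups, whatever the treatment. ITGB2, the shared beta chain of leukocyte integrins, measured 7.90, 5.73 and 3.69 CPM in replicate 1 of untreated control, reagent alone and DPPA3 mRNA, which were 49, 23 and 49 counts. In the other 6 libraries it was at most 1.02 CPM, or 12 counts. Of its alpha chain partners, ITGAL and ITGAM had 0 counts in all 9 libraries. The 5 counts of ITGAD were all in replicate 1 libraries (4 in DPPA3 mRNA and 1 in reagent alone), and ITGAX had 0 counts in replicate 1 and 15 in the others. PTPRC was at 0, while the immune markers CD14, CD68, CD79A and CSF1R had 89 to 311 counts over all libraries, and their part in the ITGB2 values was not tested. The mean fold changes of ITGB2 therefore depend on replicate 1. Against untreated control the log2 value for reagent alone was -0.89 (95% interval -3.73 to 1.94). It was 1.19 without untreated control replicate 1 and -4.44 without reagent alone replicate 1. Against reagent alone the log2 value for DPPA3 mRNA was 0.16, and it was 3.71 without reagent alone replicate 1.

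ITGA7 and LAMA3, like ITGB2, had all 3 libraries of replicate 1 above the other 6, which was so for 4.67% of all genes tested. ITGA7 measured 131, 81.7 and 93.8 CPM in replicate 1 of untreated control, reagent alone and DPPA3 mRNA, and at most 78.4 CPM elsewhere. All 3 libraries of replicate 2 were above the other 6 for 3 members, ITGB8 and LAMB1 among them, against 4.55% of all genes. LAMB1 measured 1146, 1341 and 1152 CPM in replicate 2 of untreated control, reagent alone and DPPA3 mRNA, and at most 1127 CPM elsewhere. Replicate 2 was the highest library of its group in all 3 groups for 7 of the 28 genes, where this held for 11% of all genes. Among those 7 were ITGA1, ITGA6, ITGB1, ITGB8, LAMB1 and LAMC1. The labels do not say what replicates of 1 number share.

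Ratios of subunit counts within a library do not depend on library scaling. LAMB2 stood to LAMB1 as 0.167, 0.098 and 0.106 in untreated control replicates 1 to 3, 0.073, 0.074 and 0.086 with reagent alone and 0.084, 0.087 and 0.096 with DPPA3 mRNA. Every library given the reagent was below every untreated control, and how often ratios of other gene pairs did so was not counted. LAMB1 stood to LAMC1, its partner in the same trimers, at 1.81 ± 0.117, 1.91 ± 0.124 and 1.98 ± 0.098 in untreated control, reagent alone and DPPA3 mRNA (SD, n = 3). The ratio of LAMA5 to LAMC1 was 2.58, 1.46 and 1.64 in untreated control and between 1.22 and 1.56 in the 6 libraries given the reagent.

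Among the receptors, the ratio of ITGA6 to ITGA3 was 0.380, 0.861 and 0.587 in untreated control replicates 1 to 3, 0.777, 0.875 and 0.780 with reagent alone and 0.607, 0.732 and 0.713 with DPPA3 mRNA. The DPPA3 mRNA libraries were below the reagent alone libraries, and the untreated controls spanned both. ITGAV stood to ITGB3 at 1.40 ± 0.502 in untreated control, 1.86 ± 0.099 with reagent alone and 1.92 ± 0.177 with DPPA3 mRNA (SD, n = 3). ITGAV and ITGB1 kept a narrower ratio, between 0.696 and 0.914 in all 9 libraries. With 3 libraries against 3, a two-sided exact permutation test cannot give a p below 0.1, so no difference in a ratio could pass 0.05. Of 36 such tests (12 ratios, 3 comparisons), 8 were at 0.1, or 0.45 when adjusted over the 36.

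**Figure D4:**
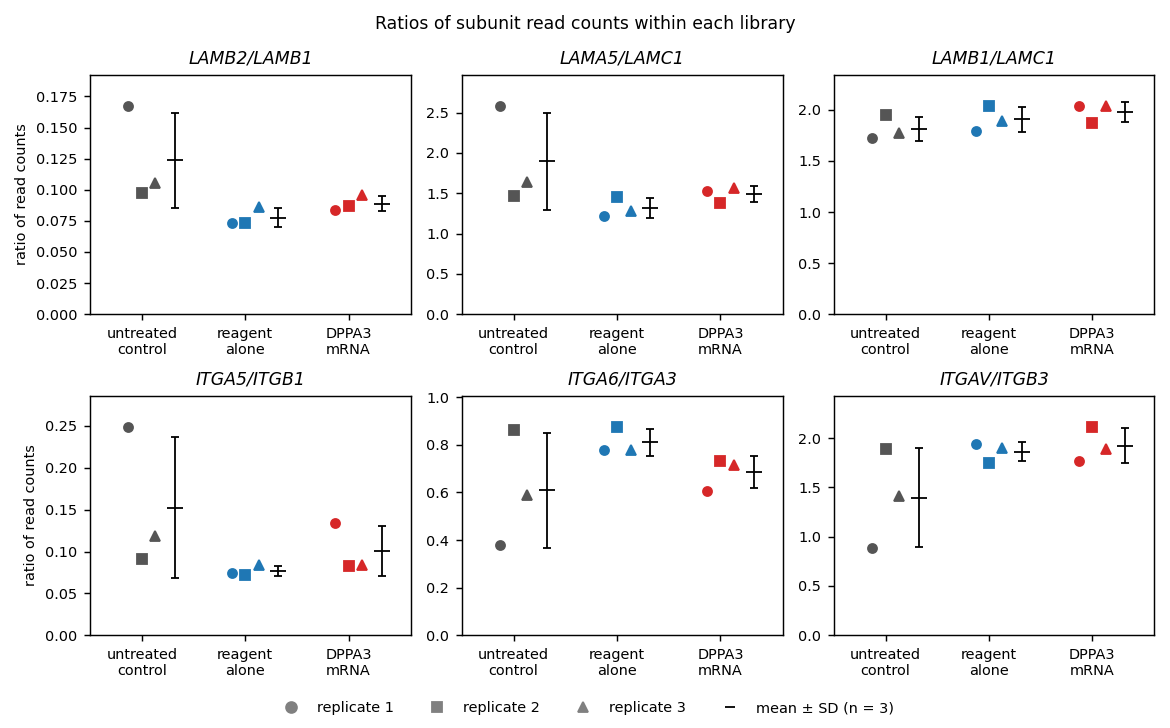
Ratio of read counts of 2 subunits within each library (vertical axis, from 0), for 6 of the 12 ratios; points are single libraries and bars give the mean and SD of 3 libraries. For LAMB2/LAMB1 the untreated controls (0.098 to 0.167) sit above the libraries given the reagent (0.073 to 0.096), and untreated control replicate 1 stands apart in LAMA5/LAMC1 at 2.58.

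The partners of these proteins were read from a list of 38 ligands and basement membrane genes, of which 28 were tested. In each comparison 0 of the 28 passed the edgeR test. The ligand SPP1 measured 37.5, 170 and 72.5 CPM in untreated control replicates 1 to 3, 235, 181 and 148 CPM with reagent alone and 133, 184 and 106 CPM with DPPA3 mRNA, and untreated control replicate 1 was again the lowest library. Its log2 fold change was 1.002 for reagent alone against untreated control (SE 0.40, edgeR adjusted p 0.466). For that comparison 4 of the 28 had an unadjusted p under 0.05, or 14.3%, where 10.2% of all genes had one. SPP1 had the higher mean with the reagent, against 4.23% of all genes, and 3 had lower means, against 5.96%. Those 3 were COL7A1, the collagen of anchoring fibrils (log2 fold change -0.75), and the basement membrane genes COL18A1 (-0.58) and HSPG2 (-0.52). How far their values rest on 1 untreated control library is not given here. The median of the list was -0.18 there and, for DPPA3 mRNA, -0.15 against untreated control and -0.004 against reagent alone. The nidogen NID1, which links laminin to collagen IV, also followed replicate number, but was low where ITGB2 was high, with 9.20 to 13.2 CPM in replicate 1 of the 3 groups and 45.8 to 64.0 CPM in the other 6 libraries. Vitronectin (VTN), a ligand of ITGAV pairs, was at or under 0.325 CPM.

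Inside the cell, integrin tails connect to actin through talin, kindlins, vinculin and the kinases FAK and ILK. Of 46 listed genes of this machinery 45 were tested, and 0 passed the edgeR test in each comparison. Talin 1 (TLN1) was at 1732 ± 269, 1465 ± 72.1 and 1562 ± 73.7 CPM in untreated control, reagent alone and DPPA3 mRNA (SD, n = 3). The kindlin gene FERMT2 was at 61.9 ± 19.6, 80.8 ± 7.68 and 78.5 ± 5.36 CPM in the same order. For reagent alone against untreated control 5 of the 45 had an unadjusted p under 0.05, or 11.1%, where 10.2% of all genes had one. All 5 means were lower with the reagent, where 5.96% of all genes were lower by this rule, and 0 were higher, against 4.23%. The 5 were SDC1 (log2 fold change -0.56), ZYX (-0.51), TNS2 (-0.49), ARHGEF7 (-0.42) and TNS1 (-0.32), all with an edgeR adjusted p of 0.466. The 46 genes summed to 14475 to 20757 CPM in untreated control and 14159 to 15256 CPM with reagent alone. How far the 5 lower means rest on 1 untreated control library is not given here. The median of this list was -0.17 for reagent alone and -0.15 for DPPA3 mRNA against untreated control; DPPA3 mRNA against reagent alone gave -0.002.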

How the data were processed

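The deposited counts are whole reads per gene symbol, not normalised. The submitters' processing notes name Trimmomatic, HISAT2, edgeR and HTSeq. What each did, the build, the annotation and the use of strand are not given in the sources here. Reads of a member and of an overlapping or antisense gene may therefore be mixed. By symbol, 36 of the 37 members were found in a RefSeq gene table, whose assembly may differ from the build of the counts. In that annotation 5 overlap a protein-coding gene (ITGA1, ITGA2, ITGA4, ITGA7 and ITGAE). Another 11 overlap only other annotated genes that are not protein-coding, among them ITGAV, ITGA5, ITGA6, ITGB8 and LAMB1.

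The main test was edgeR 4.0.16 in R 4.3.3 with filterByExpr, TMM factors, glmQLFit and glmQLFTest, on all 9 libraries at once with group as the only term. P-values were adjusted by Benjamini-Hochberg over 14874 genes. The biological coefficient of variation common to all genes was 0.255. A standard error is the log2 fold change over the square root of F, and a 95% interval uses the t quantile of the fit. Deviations between libraries use log2(CPM + 0.5). The scripts were tested on simulated data.

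All members may be named, but values of 1 tested member are not reported here. Values of every library were planned for ITGAV, ITGB1, LAMB1 and the 4 smallest p of each comparison. Other genes, and the 12 ratios, were chosen after their values were seen, and a planned choice by level per coding length was not made. Members and lists were chosen with earlier results of these data known. Of the ligand list, CCN1, CCN2 and LGALS15 were not found under those symbols. Alternatives were the size factors and the Wald test of DESeq2 1.42.0, no filter, 2 groups at a time, replicate number as a block, DPPA3 left out of library sizes and test, and single libraries removed. Over all genes, libraries of DPPA3 mRNA and untreated control with 1 number deviated together (correlations 0.34, 0.32 and 0.12). The main fit did not pair libraries in any comparison, because the labels do not say that numbers pair them. Its intervals and p-values therefore take no account of this, and the block was an alternative.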

Additional observations from a re-analysis of the deposited data

How the results depend on the processing

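The integrin and laminin genes called stayed at 0 in all 3 comparisons under every alternative, including limma 3.58.1 voom with quality weights and the block without untreated control replicate 1, which were chosen after seeing the data. DESeq2 size factors changed the sign of 0 of the 28 fold changes in each comparison. Of 1147 recomputed fold changes of single members, 1086 moved by no more than 1 standard error and 61 by more. Taking the comparisons in the order used in the report, calls among all genes numbered 66, 69 and 18 with no filter and 9, 10 and 2 with DESeq2; the cause was not tested. With DPPA3 left out of the library sizes and the test, which left 14896 genes after the filter, the first 2 became 0 and 0. With the replicate block they were 2, 7 and 0, and the block changed no call of a member. Members with an unadjusted p under 0.05 were then 0, 2 and 9, where 2.43%, 9.35% and 19.6% of all genes had one. For the 2 comparisons other than DPPA3 mRNA against untreated control, the correlations between libraries of equal number were also above 0. They were 0.14, 0.12 and 0.086 (DPPA3 mRNA and reagent alone) and 0.15, 0.14 and 0.093 (reagent alone and untreated control). In each comparison a library correlated more with its own number than with the others, which is a hint only. Against untreated control, voom called 4 genes with DPPA3 mRNA and 2 with reagent alone. The block without untreated control replicate 1 called 33 and 6. Single libraries left out gave between 1 and 20, 1 and 26, and 0 and 1 calls, the highest of the first 2 without DPPA3 mRNA replicate 1. The members' median for reagent alone against untreated control was 0.065 with no filter, which added 7 members, and ranged from -0.11 without untreated control replicate 3 to 0.082 without untreated control replicate 1. For DPPA3 mRNA against reagent alone it lay between -0.09 and 0.01 without single libraries, and against untreated control between -0.21 and -0.02. Depth limits the low genes: ITGA2B, ITGA8, ITGB2 and LAMA2 had under 300 counts in all.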
